A study of Homo sapiens with 4 samples.

Results

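The genes described here are 32 genes of the G1/S transition and DNA replication that are known targets of E2F transcription factors. They were chosen by symbol, but with earlier results of these data known. All 32 were found among the 60617 Ensembl gene IDs of the table. The study measured RNA in 2 human prostate cancer lines with or without morusin, a prenylated flavone of mulberry root bark. 22Rv1 is a line from a prostate carcinoma xenograft; its cells, in RPMI medium, were left untreated or received 75 µM morusin for 6 h. PC3 is a line from a bone metastasis; its cells, in F12 medium, were left untreated or received 46 µM for 6 h. Media of both lines held heat-inactivated serum, penicillin and streptomycin, and no vehicle is named for the untreated cells. Each group is 1 library, so a difference within a line has no replicate check and no p-value, and line, dose and medium cannot be told apart.

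Before S phase, cyclin E with CDK2 releases E2F factors from the retinoblastoma protein, and E2F switches on the genes that copy DNA. ORC1, CDC6 and CDT1 load the MCM2 to MCM7 helicase onto origins (licensing). CDC45 and the GINS complex then turn it into the moving helicase of the fork, where polymerases, the PCNA clamp, nucleotide enzymes and histone chaperones work.

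The promoters of these genes carried the letters of the E2F site more often than other promoters did. The genes were listed as known E2F targets, so this excess follows the choice of list and is no separate result. The letters searched were TTTCCCGC, TTTCGCGC, TTTGCCGC and TTTGGCGC, on both strands, in RefSeq windows (GRCh38.p14) from 250 bases before to 50 after a gene's start. Windows were found for 29 of the 32 genes, and 18 of these (62.1%) held a match in at least 1 window, against 6.80% of 10727 genes expressed in at least 1 line and 31.25% of 64 other genes of the pathway (described last). By window, 19 of 38 held a match, against 3.31% of all 35116. The CCAAT box, a site of the factor NF-Y, was in 65.5% of the 29 genes against 43.4% of the expressed genes and 54.7% of the other pathway genes, and TTTGAA, the letters of the CHR element of mitotic genes, in 3.45% against 13.3%. The stretches below lie wholly before the start site and were picked to show a doubled site (MCM6) and genes with different responses; capitals mark the E2F letters.
MCM6, chr2:135876492-135876625, minus strand: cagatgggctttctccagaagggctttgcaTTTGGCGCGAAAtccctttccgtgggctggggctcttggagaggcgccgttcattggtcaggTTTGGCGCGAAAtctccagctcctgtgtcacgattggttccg
CDT1, chr16:88803724-88803788, plus strand: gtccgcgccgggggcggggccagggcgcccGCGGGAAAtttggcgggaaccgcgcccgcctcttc
E2F1, chr20:33686386-33686448, minus strand: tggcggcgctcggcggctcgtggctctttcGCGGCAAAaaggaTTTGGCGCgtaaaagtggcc
E2F2, chr1:23531238-23531305, minus strand: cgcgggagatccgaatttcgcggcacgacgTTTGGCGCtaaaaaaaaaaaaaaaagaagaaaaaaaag
PCNA, chr20:5126644-5126711, minus strand: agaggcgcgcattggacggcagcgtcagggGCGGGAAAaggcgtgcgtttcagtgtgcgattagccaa
POLA1, chrX:24693751-24693818, plus strand: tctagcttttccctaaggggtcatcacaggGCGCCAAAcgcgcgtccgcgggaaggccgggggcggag

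In MCM6 each of the 2 marked blocks holds 2 overlapping matches, 1 on each strand. Genes with and without an E2F match had similar median changes. In 22Rv1 the median log2 change was -0.24 for the 18 genes with a match and -0.25 for the 11 without, and in PC3 it was 0.28 and 0.21. A match is a run of letters, and binding was not measured here.

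Levels are FPKM, fragments scaled by transcript length and by mapped fragments, as the authors deposited them. The libraries' FPKM summed to between 335458 and 408628, and their depth, inferred roughly from the steps between low values, was 23.5 and 19.1 M (mega) read pairs in untreated and treated 22Rv1 and 40.6 and 28.7 M in untreated and treated PC3. Markers went with the labels: KLK4, a prostate luminal kallikrein, was at 288 FPKM in untreated 22Rv1 and at 0.0173 in untreated PC3, and the epithelial keratin KRT8 was between 107 and 137 FPKM in every library. Of 14 markers of leukocytes, fibroblasts and endothelium, the summed level per list was at most 3.05 FPKM in a library, apart from CD68, also a lysosomal gene, at 26.0 and 39.9 FPKM in PC3. At these depths the counting error of a log2 ratio had a median of 0.0440 over the 32 genes in 22Rv1 and 0.0478 in PC3. It covers counting error only. In bulk RNA, fewer cells in S phase and less of these mRNAs per cell cannot be told apart.

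**Figure D1:**
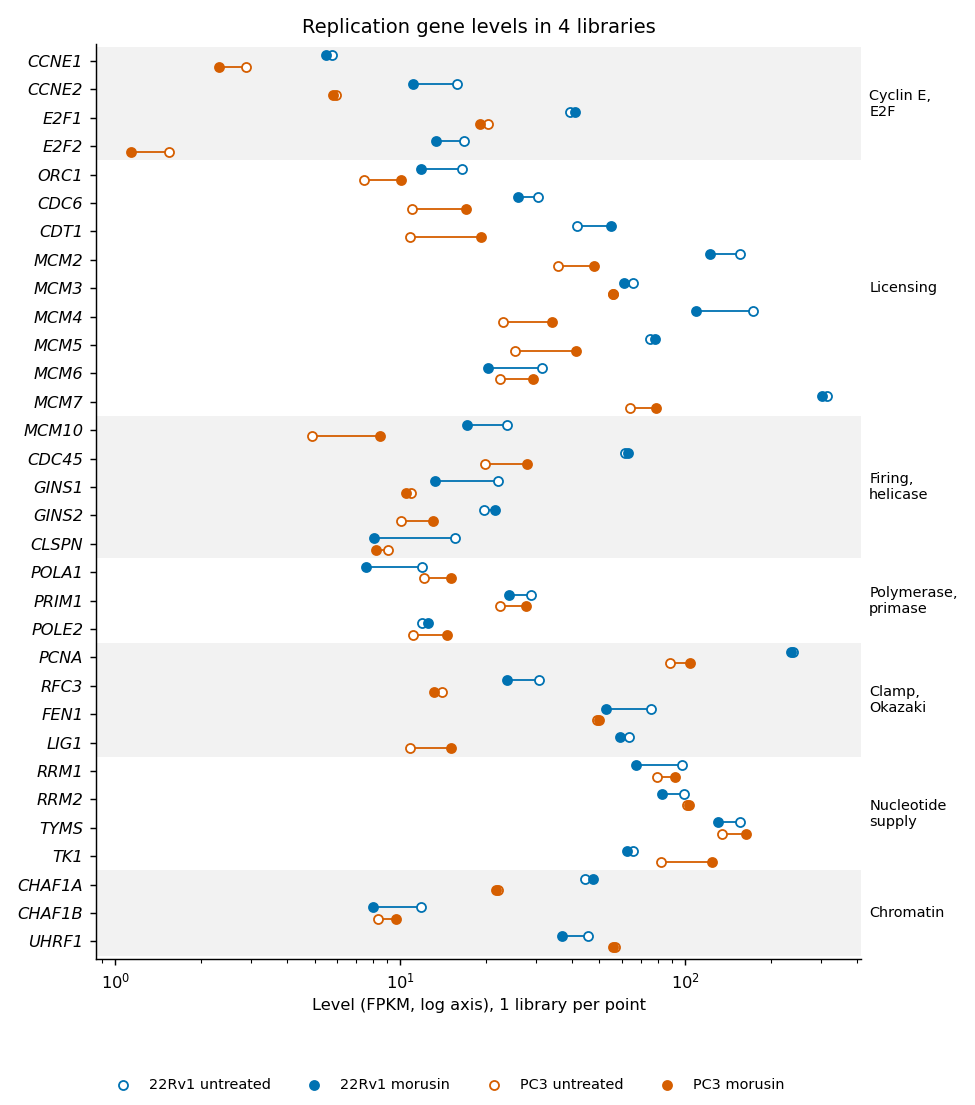
FPKM of the 32 genes (log axis) in untreated (open) and morusin-treated (filled) cells of 22Rv1 (blue) and PC3 (orange), 1 library per point, grouped by role. MCM4 ran from 173 down to 109 FPKM in 22Rv1 and from 23.0 up to 34.2 in PC3, and most genes stood further right in 22Rv1.

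The untreated lines differed in how much of this machinery they expressed. The ratio was taken as log2 of (22Rv1 FPKM + 1) over (PC3 FPKM + 1), and 28 of the 32 genes were higher in 22Rv1, with a median log2 ratio of 0.94. Over all 14363 genes tested, 53.9% were higher in 22Rv1, with a median of 0.11. In 22Rv1, 14 genes were at least 2-fold higher, against 19.8% of all genes tested, and 0 were 2-fold higher in PC3, against 19.2%. Licensing genes stood out by size, with 7 of 9 at least 2-fold higher in 22Rv1. MCM7 was at 314 FPKM in untreated 22Rv1 and 63.9 in untreated PC3, MCM4 at 173 and 23.0, and MCM2 at 156 and 35.8. E2F2, an activator E2F, was at 16.7 and 1.54 FPKM. With 1 added to each level MCM4 had the widest gap, a log2 ratio of 2.86 against 2.80 for E2F2, while the plain FPKM ratio was 10.8 for E2F2 and 7.52 for MCM4. The genes of nucleotide supply were nearly level. TYMS, thymidylate synthase, was at 156 and 135 FPKM, RRM2, the regulated subunit of ribonucleotide reductase, at 98.8 and 101 FPKM, and TK1, thymidine kinase, was higher in PC3 at 65.5 and 82.5 FPKM.

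The same gap was fitted over all 4 libraries with limma, with line and treatment as terms, which lets the treated and untreated libraries of a line stand as its replicates. The fit had 1 residual degree of freedom and no repeat culture of any group, so its p-values do not measure the spread between cultures. At an adjusted p under 0.05 (Benjamini-Hochberg over 13980 genes), 20 of the 32 genes differed between the lines. That share is close to the 64.4% of all genes called, so the number called says little about these genes. By direction, 19 of the 20 were higher in 22Rv1, against 56.0% of all 9010 genes called. Over all genes tested, 36.1% were called higher in 22Rv1, against 19 of the 32. E2F2 had a log2 difference of 2.77 (SE 0.215, adjusted p = 5.44e-06 by limma), MCM7 of 2.10 (SE 0.185, adjusted p = 1.23e-05 by limma) and LIG1, the ligase that seals Okazaki fragments, of 2.18 (SE 0.21, adjusted p = 2.17e-05 by limma). TK1 was the gene called higher in PC3, with a log2 difference of -0.65 (adjusted p = 0.0212 by limma).

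With morusin, the genes were mostly lower in 22Rv1 and mostly higher in PC3. The change of a gene is log2 of (treated FPKM + 1) over (untreated FPKM + 1), a scale on which low genes change less than their FPKM, and all 32 genes passed the filter of 1 FPKM in at least 1 library of each line. In 22Rv1, 25 of 32 were below 0 against 50.6% of 13361 genes tested, and 7 were above 0 against 49.4%, with a median of -0.26 against -0.01 for all genes. In PC3, 22 of 32 were above 0 against 44.2% of 12907 genes tested, and 10 were below 0 against 55.8%, with a median of 0.28 against -0.05. As a ratio of FPKM + 1, treated over untreated, the median change was thus 0.837 in 22Rv1 and 1.22 in PC3.

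No gene of the 32 reached 2-fold in either line, and a size of 1.5-fold was therefore used to single genes out. Few of all genes reached 2-fold in either direction: 580 of 13285 tested genes with a symbol in 22Rv1 and 490 of 12862 in PC3. In 22Rv1, 5 genes were at least 1.5-fold lower (9.82% of all genes tested) and 0 at least 1.5-fold higher (13.5%). The 5 were CLSPN, GINS1, MCM4, MCM6 and POLA1. In PC3, 3 genes reached 1.5-fold higher (3.59%) and 0 reached 1.5-fold lower (11.3%). These were CDT1, MCM5 and MCM10. POLA1 lay just inside the threshold in 22Rv1 at -0.59, with RRM1 next at -0.54, and in PC3 TK1 and CDC6 lay just outside it at 0.58. The change was larger than 2 counting errors for 22 genes below 0 and 3 above 0 in 22Rv1, and for 20 genes above 0 and 2 below 0 in PC3. The share of all genes past 2 counting errors was not computed, so these counts do not set the 32 genes apart from other genes. Levels below are given as treated against untreated unless stated.

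**Figure D2:**
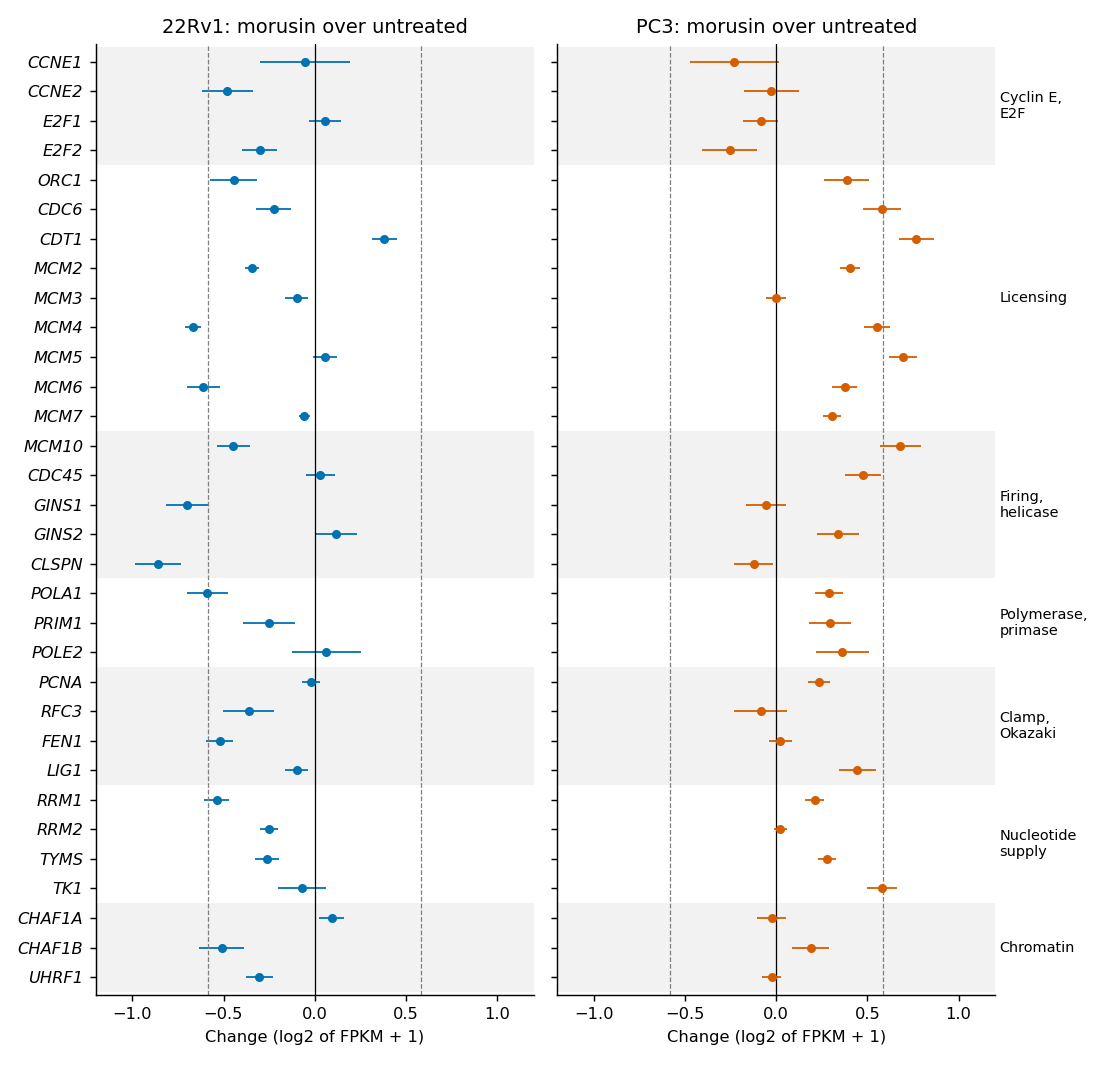
Log2 change of FPKM + 1 with morusin for each of the 32 genes in 22Rv1 (left) and PC3 (right); bars are 2 counting errors on that scale and dashed lines mark 1.5-fold. Points lie mostly left of 0 in 22Rv1, down to -0.86 for CLSPN, and mostly right of 0 in PC3, up to 0.77 for CDT1.

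The 4 regulators at the top of the program were among the 10 of the 32 genes below 0 in PC3. Of the 4, E2F2 lay past 2 counting errors there, and 3 of 4 were below 0 in 22Rv1. The chromatin genes, described later, also had 2 of 3 below 0 in PC3. E2F1, the founding activator E2F, was at 39.4 FPKM untreated and 41.0 treated in 22Rv1, and at 20.3 and 19.1 in PC3. E2F2 was at 13.3 against 16.7 FPKM in 22Rv1 and at 1.13 against 1.54 in PC3. CCNE1, cyclin E1, was at 5.50 against 5.74 FPKM in 22Rv1 and at 2.31 against 2.88 in PC3. CCNE2, cyclin E2, was lower in 22Rv1 at 11.1 against 15.8 FPKM, a change of -0.48 with a counting error of 0.0697, and nearly level in PC3 at 5.81 against 5.94. Exons of CCNE2 share 1629 bases with INTS8 on the opposite strand, and no source used here says whether counting took strand into account.

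Licensing genes were mostly higher in PC3 and mostly lower in 22Rv1. Of the 9, 8 were above 0 in PC3 (median 0.41) and 7 were below 0 in 22Rv1 (median -0.23). CDT1, the loader of the MCM helicase, was the gene highest above 0 in both lines, at 54.8 against 41.8 FPKM in 22Rv1 (change 0.38, counting error 0.0349) and at 19.1 against 10.8 in PC3 (change 0.77, counting error 0.0478). CDC6, its partner in loading, went opposite ways, at 25.8 against 30.4 FPKM in 22Rv1 and at 17.0 against 11.0 in PC3. ORC1, the largest subunit of the origin recognition complex, did the same, at 11.8 against 16.5 FPKM in 22Rv1 and at 10.0 against 7.44 in PC3.

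The 6 subunits of the MCM2 to MCM7 ring did not change by equal amounts, although the protein complex holds them in equal number. In 22Rv1 their FPKM summed to 815 untreated and 692 treated, and in PC3 to 226 and 287. MCM4 was the subunit with the widest split between the lines, at 109 against 173 FPKM in 22Rv1 (change -0.67, counting error 0.0217) and at 34.2 against 23.0 in PC3 (change 0.55, counting error 0.0358). MCM6 was at 20.3 against 31.5 FPKM in 22Rv1 and at 29.3 against 22.3 in PC3, so that untreated 22Rv1 had 1.41 times the PC3 level and treated 22Rv1 0.692 times. MCM2 was at 122 against 156 FPKM in 22Rv1 and at 47.7 against 35.8 in PC3. MCM5 was nearly level in 22Rv1 at 78.4 against 75.3 FPKM, and in PC3 it was 41.5 against 25.2. MCM7 was at 301 against 314 FPKM in 22Rv1 and at 79.1 against 63.9 in PC3. MCM3 was close to level in both lines, at 61.0 against 65.4 FPKM in 22Rv1 and 55.6 against 55.7 in PC3.

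The genes of origin firing and the fork helicase split in 22Rv1. CLSPN, claspin, the adaptor that carries the checkpoint signal to the kinase CHEK1, was the lowest gene of the 32 there, at 8.09 against 15.5 FPKM (change -0.86, counting error 0.0626), and it was at 8.23 against 9.06 in PC3. GINS1 was at 13.2 against 22.1 FPKM in 22Rv1 (change -0.70), while GINS2, a subunit of the same 4-protein complex, was at 21.5 against 19.7. In PC3, GINS1 was at 10.5 against 10.9 FPKM and GINS2 at 13.0 against 10.1. MCM10, which helps activate the helicase, was lower in 22Rv1 at 17.1 against 23.7 FPKM and higher in PC3 at 8.46 against 4.91, changes of -0.45 and 0.68. CDC45 was level in 22Rv1 at 62.7 against 61.4 FPKM and higher in PC3 at 27.9 against 19.8.

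All 3 genes of polymerase and primase were above 0 in PC3, by similar amounts. POLA1, the catalytic subunit of polymerase alpha, had 15.0 against 12.1 FPKM there, and in 22Rv1 it had 7.58 against 11.9. Untreated 22Rv1 had 0.983 times the PC3 level of POLA1, and treated 22Rv1 0.505 times. PRIM1, the primase that lays down RNA primers, had 24.1 against 28.9 FPKM in 22Rv1 and 27.6 against 22.4 in PC3. Exons of PRIM1 share 362 bases with AC117378.1 on the same strand. AC117378.1 had 72.9 against 14.2 FPKM in 22Rv1 and 17.6 against 3.87 in PC3, and any effect on the PRIM1 values was not tested. POLE2, a subunit of the leading-strand polymerase epsilon, had 12.5 against 11.9 FPKM in 22Rv1, within 1 counting error, and 14.6 against 11.1 in PC3.

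Among clamp and Okazaki fragment genes, PCNA, the sliding clamp, was level in 22Rv1 at 236 against 239 FPKM and at 104 against 88.2 in PC3. FEN1, the nuclease that trims Okazaki fragment flaps, was lower in 22Rv1 at 52.8 against 76.1 FPKM (change -0.52) and level in PC3 at 49.7 against 48.9. LIG1 was at 59.1 against 63.4 FPKM in 22Rv1 and at 15.1 against 10.8 in PC3. RFC3, a subunit of the clamp loader, was below 0 in both lines, at 23.6 against 30.7 FPKM in 22Rv1 and at 13.2 against 14.0 in PC3, the latter within 2 counting errors.

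All 4 genes of nucleotide supply were below 0 in 22Rv1 and above 0 in PC3, though TK1 in 22Rv1 and RRM2 in PC3 lay within 2 counting errors. RRM1, the large subunit of ribonucleotide reductase, was at 67.0 against 97.7 FPKM in 22Rv1 and at 92.4 against 79.7 in PC3. RRM2 was at 82.9 against 98.8 FPKM in 22Rv1 and at 103 against 101 in PC3. Exons of RRM2 share 1077 bases with AC007240.1 on the same strand, a gene without a level in these data. TYMS was at 129.8 against 156 FPKM in 22Rv1 and at 164 against 135 in PC3, and its exons share 967 bases with ENOSF1 on the opposite strand. TK1 was at 62.3 against 65.5 FPKM in 22Rv1 and at 124 against 82.5 in PC3, where its change of 0.58 was the widest of the 4.

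The chromatin genes included a pair from the same complex that differed. CHAF1A and CHAF1B encode subunits of CAF-1, which places histones on new DNA. In 22Rv1, CHAF1A was at 47.4 against 44.4 FPKM and CHAF1B at 7.99 against 11.8. In PC3, CHAF1A was at 21.7 against 22.1 FPKM and CHAF1B at 9.62 against 8.32. UHRF1, which brings the maintenance DNA methyltransferase to replicated DNA, was at 36.9 against 45.7 FPKM in 22Rv1 and level in PC3 at 55.7 against 56.8.

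Set side by side, most of these genes changed in opposite directions in the lines, and most stood closer in level in treated cells. Of the 32 genes, 17 were below 0 in 22Rv1 and above 0 in PC3, against 14.7% of 11240 genes tested in both lines. A further 8 were below 0 in both lines, 5 above 0 in both, and 2 above 0 in 22Rv1 alone. The PC3 change exceeded the 22Rv1 change for 29 of the 32 genes, with a median difference of 0.54, while over all genes it did so for 42.7% with a median of -0.08. The median log2 ratio of 22Rv1 to PC3 went from 0.94 untreated to 0.63 treated. The lines stood closer in treated than in untreated cells for 21 of the 32 genes, against 42.1% of genes tested in both lines. Others moved apart, such as POLA1 (plain ratio 0.983 to 0.505) and TK1 (0.794 to 0.503). For each gene, the PC3 change minus the 22Rv1 change equals the untreated log2 ratio minus the treated one. The shift in level is therefore not a second, separate result. Across all genes the changes of the lines correlated with r = 0.523 (n = 11240), and across the 32 genes with r = 0.257, both descriptions across genes, which are not independent replicates. This difference between lines leaves no residual degrees of freedom and was not tested.

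**Figure D3:**
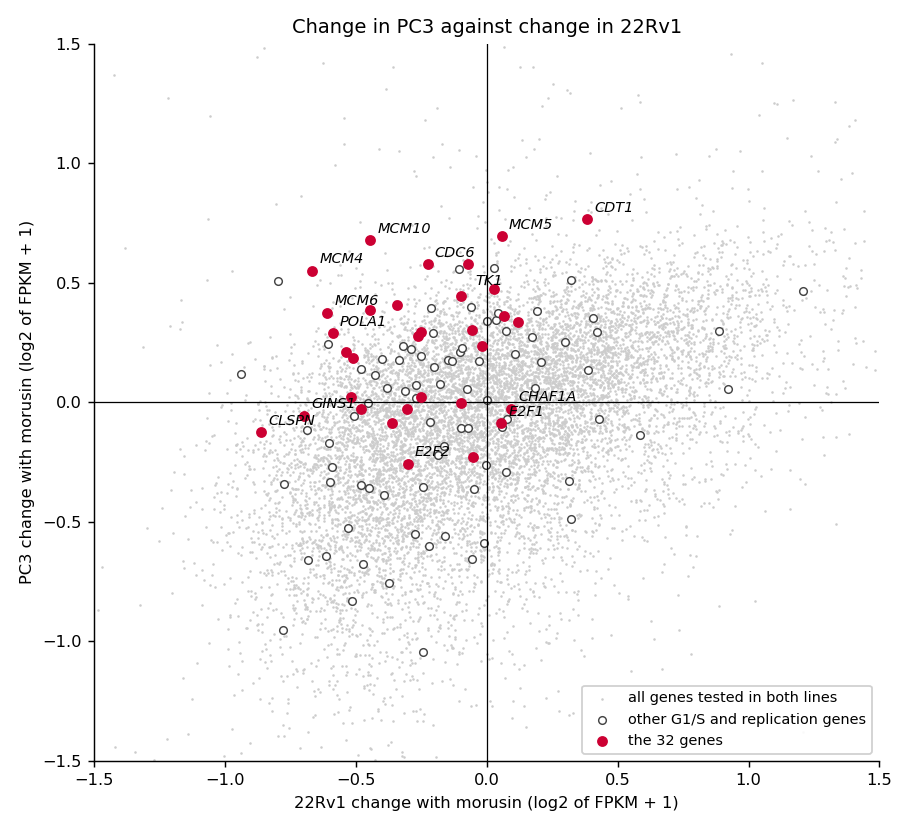
Log2 change with morusin in PC3 (vertical) against 22Rv1 (horizontal) for all genes tested in both lines (grey), other G1/S and replication genes (open) and the 32 genes (red); genes beyond 1.5 on either axis are not drawn. The 17 red points in the upper left were below 0 in 22Rv1 and above 0 in PC3, with MCM4 and MCM10 farthest from the diagonal.

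For a response common to both lines, limma was fitted to all 4 libraries, with the line as block and 1 residual degree of freedom. None of the 32 genes passed an adjusted p of 0.05, against 0.587% of all 13980 genes (82 genes). At an unadjusted p under 0.05 there was 1 of the 32, CDT1, with a shared log2 change of 0.58 (adjusted p = 0.192 by limma), above 0 in 2 of 2 lines. Most genes pointed opposite ways in the lines, so their shared changes lay near 0, such as -0.06 for MCM4, 0.12 for MCM10 and 0.01 for TYMS.

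The changes in 22Rv1 went with transcript length and base composition across all genes. For each doubling of transcript length the change was lower by 0.19 log2 units on average in 22Rv1 (slope -0.19) and by 0.11 in PC3 (slope -0.11), and per 10 percentage points of GC it was higher by 0.25 and 0.05. The 32 genes had longer transcripts than the genes tested in 22Rv1, with medians of 3019 and 2042 bases, and similar GC. With a linear length trend removed, the median of the 32 genes was -0.20 in 22Rv1 and 0.30 in PC3. In 22Rv1, 2 genes were then at least 1.5-fold lower (CLSPN and GINS1), against 8.35% of all genes. In PC3, 5 were at least 1.5-fold higher, against 3.24% of all genes. With length and GC removed together, an alternative chosen after seeing the data, the medians were -0.19 and 0.32. MCM4 was the gene left at least 1.5-fold lower in 22Rv1, against 7.15% of all genes. With either removal, the share of the 32 genes at least 1.5-fold lower in 22Rv1 was not above that of all genes. Compared with the median of genes of their own length, 22 of the 32 were lower in 22Rv1 and 29 were higher in PC3.

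**Figure D4:**
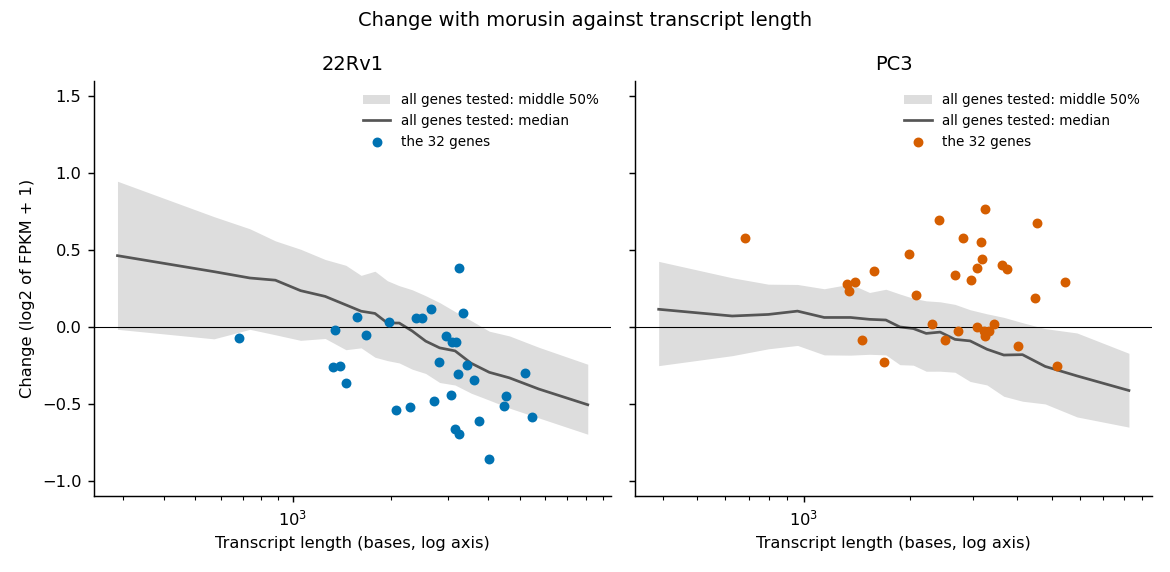
Log2 change with morusin against transcript length (log axis) in 22Rv1 (left) and PC3 (right); the line is the median and the band the middle 50% of all genes tested, in bins of length, and points are the 32 genes. The median of all genes slopes down with length in both lines, with 22 of 32 points below it in 22Rv1 and 29 of 32 above it in PC3.

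Scaling also touched the 22Rv1 values, since the FPKM of the treated library summed to 408628 against 356195 untreated. With equal FPKM sums in every library, the median of all genes was -0.17 in 22Rv1 and -0.14 in PC3. The median of the 32 genes lay 0.28 below that of all genes in 22Rv1 and 0.33 above it in PC3, against 0.25 below and 0.34 above as deposited. On this scale 11 of the 32 genes were at least 1.5-fold lower in 22Rv1, and E2F1, MCM5, CDC45, GINS2, POLE2 and CHAF1A turned from above to below 0, which left CDT1 above 0. In PC3 FEN1 and RRM2 turned from above to below 0, and the same 3 genes were at least 1.5-fold higher, against 2.67% of all genes. Over all genes in 22Rv1 the share at least 1.5-fold higher went from 13.5% to 8.05% and the share at least 1.5-fold lower from 9.82% to 19.0%.

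Other genes of the pathway, 83 in 4 lists, included genes above and below 0 in each list. In PC3, 44 of 82 tested were above 0, 0 reached 1.5-fold higher and 10 reached 1.5-fold lower, a share close to the background (3.59% and 11.3% of all genes). Of these 10, 7 were among the 25 tested regulators of G1/S, whose median was -0.26. SKP2, the ubiquitin ligase subunit that targets CDKN1B, was at 9.65 against 19.6 FPKM in PC3. CDC25A, the phosphatase that activates CDK2, at 5.13 against 9.91, and E2F6, a repressor E2F, at 6.10 against 11.0. DBF4, the activating subunit of the CDC7 kinase that fires licensed origins, was the gene farthest below 0 in PC3, at 6.39 against 14.3 FPKM (change -1.04, counting error 0.0546). TOPBP1 and TICRR, which bring CDC45 to origins, were also below 0 in PC3, at 10.2 against 15.2 and 3.97 against 6.33 FPKM. The regulators highest above 0 in PC3 were CDKN1A, the CDK inhibitor p21, at 10.1 against 6.76 FPKM, CDK2 at 54.3 against 41.0 and RB1 at 11.6 against 9.61. Other polymerase, clamp loader and RPA genes had a PC3 median of 0.22, with PRIM2, the partner of PRIM1, at 18.5 against 12.2 FPKM and RFC2, a clamp loader subunit, at 38.2 against 26.5. In the same list 8 of 23 were below 0, with TIMELESS, a fork protection protein, at 16.0 against 24.6 FPKM, POLA2, a subunit of polymerase alpha, at 7.85 against 12.0 and POLD1, the catalytic subunit of polymerase delta, at 18.6 against 26.5. RRM2B, the p53-induced ribonucleotide reductase subunit of the nucleotide and chromatin list, was at 11.9 against 19.7 FPKM.

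In 22Rv1, 56 of the 81 other genes tested were below 0, 11 at least 1.5-fold lower and 4 at least 1.5-fold higher (background 9.82% and 13.5%). Of the regulators tested, 21 of 24 were below 0, with a median of -0.38. CDKN1A was at 8.93 against 16.2 FPKM, opposite to PC3, SKP2 at 17.1 against 30.1 and FBXO5, the inhibitor of the APC/C ligase, at 12.7 against 21.0. HELLS, a chromatin remodeler, was at 20.7 against 40.7 FPKM and ATAD2, a bromodomain ATPase, at 36.0 against 62.3. The genes farthest above 0 were CHTF18, a subunit of an alternative clamp loader, at 87.7 against 37.4 FPKM, RECQL4, a helicase of replication initiation, at 156 against 82.0, and POLD4, the smallest subunit of polymerase delta, at 6.96 against 3.31. None of the 83 genes passed the shared limma test (lowest adjusted p = 0.114, SKP2).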

How the data were processed

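RNA-seq libraries of 22Rv1 and PC3 cells, 1 per line and treatment, were made from column-purified total RNA with a TruSeq RNA v2 kit and read as paired ends, per the labels' protocols. The submitters' processing notes name Trimmomatic, HISAT2 and StringTie, with GRCh38 as build. Versions and annotation are not given in the sources used. FPKM per gene and library were deposited by the authors, a unit to which count models do not apply. IDs were matched to symbols by a gene name table (60261 of 60617 IDs). Positions, transcript lengths (the median-length transcript of the basic set) and GC came from GENCODE 29 on GRCh38, which may not be the authors' annotation.

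Changes are log2 ratios of FPKM + 1 in genes that reached 1 FPKM in either library of a line. The lines' shared response and the line difference were fitted with limma 3.58.1 in R 4.3.3 (log2 of FPKM + 1, line and treatment, a mean trend, genes at 1 FPKM in no fewer than 2 libraries, Benjamini-Hochberg adjustment); the fit was tested on simulated data. Depth was taken as the most frequent step, with its halved step, of FPKM times length in single-exon genes of 600 to 5000 bases (tolerance 1.5%); from 57 to 81 low values lay at that step out of 1130 to 1461, so depths are rough. Counting errors were put on the scale of FPKM + 1. Python 3.11.15, numpy 2.4.6, pandas 2.3.3 and matplotlib 3.10.9 were used. Alternatives were other pseudocounts, filters, scalings and folds, and removed trends on length and GC. The members, lists and the 1.5-fold size were chosen with earlier results of these data known. All 32 members are given; of each other list, genes named are from the 3 highest and 3 lowest changes per line among those at 5 FPKM or more. A marker gene of the lines is not reported here.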

Additional observations from a re-analysis of the deposited data

Results flagged for a closer look

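For 13 of the 32 genes the change was past 2 counting errors in both lines and of opposite sign, below 0 in 22Rv1 and above 0 in PC3. The share of all genes that met this rule was not computed. Each group is 1 library, and the difference between the lines was not tested. The PC3 change minus the 22Rv1 change was 1.22 for MCM4, 1.13 for MCM10 and 0.99 for MCM6. It was 0.88 for POLA1, 0.83 for ORC1, 0.81 for CDC6, 0.75 for MCM2 and 0.75 for RRM1. It was 0.70 for CHAF1B, 0.55 for PRIM1, 0.54 for LIG1, 0.54 for TYMS and 0.36 for MCM7.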

How the results depend on the processing

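The medians of the 32 genes kept their sign in both lines under all 8 alternatives run, and so did the median difference between the lines. In 22Rv1 the median was -0.45 after rescaling, -0.20 without the length trend and -0.19 without the length and GC trend, against -0.26; in PC3 it was 0.19 after rescaling and 0.34 after centring on all genes, against 0.28. The median difference was 0.64 after rescaling and 0.46 with a pseudocount of 5. The number at least 1.5-fold lower in 22Rv1, 5, became 2 with a pseudocount of 5, 4 after centring (POLA1 lost), 11 after rescaling, 2 without the length trend and 1 without the length and GC trend. In the same order, the share of all genes was 2.76%, 9.38%, 19.0%, 8.35% and 7.15%, against 9.82%. The number at least 1.5-fold higher in PC3, 3, became 2 with a pseudocount of 5 (MCM10 lost), 5 with a pseudocount of 0.1, 6 after centring, and 5 without either trend. The share of all genes was 1.45%, 5.21% and 4.68% in that order, and 3.24% and 3.18% without the trends, against 3.59%. At 2-fold both were 0, a size that few of all genes reached. At a log2 change of 0.32 or more, the smallest size tried, 13 genes were lower and 1 higher in 22Rv1, and 13 were higher in PC3. The share of all genes at this smallest size was not computed, so these counts do not set the 32 genes apart. The shared limma test called 0 of the 32 genes under every setting, with the lowest adjusted p between 0.0744 and 1, and without the line as replicate block it called 0 of all genes. Over all genes its calls went from 82 to 1573 after rescaling, 202 with equal library medians, 169 with a filter of 5 FPKM, 53 without the trend and 33 with a pseudocount of 5. Of 384 changes of single genes within a line, under the 6 alternatives that can alter them, 169 stayed within their counting error and 215 moved by more, and none past 1.5-fold changed sign. The line difference called 19 to 21 of the 32. No library could be left out, since each group is 1 library. CCNE1 had the widest counting error in both lines, 0.123 in 22Rv1 and 0.122 in PC3. In PC3 E2F2, at 1.54 FPKM untreated, was next at 0.0764.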
